A study of Mus musculus with 12 samples.

Results

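Transcripts of the MHC class II antigen presentation genes and of their transactivator gene Ciita were followed by RNA-seq in a mouse model of pre-B acute lymphoblastic leukemia, a cancer of the precursors of B cells. The members were taken by gene symbol, with earlier results of these data known. They are Ciita, Cd74, H2-Aa, H2-Ab1, H2-Eb1, H2-DMa, H2-DMb1, H2-DMb2, H2-Oa and H2-Ob, 10 of the 23224 genes in the deposited table. All 10 were in the table and all 10 were among the 12335 genes that passed the filter on low counts and were tested. Cells of every group came from C57BL/6J mice, lacked p19 and overexpressed the BCR-ABL1 fusion kinase. There were 3 libraries in each of 4 groups: cells null for Phf6 made with guide RNA 1 (KO_sg1), cells null for Phf6 made with guide RNA 4 (KO_sg4), cells carrying a short hairpin RNA labelled for Phf6 (KD), and Phf6 wild-type cells (WT). Phf6 encodes a chromatin-associated protein with PHD-like zinc fingers, and the series asks about its part in B-cell identity. The labels do not say whether the libraries of a group were separate cultures, whether a knockout line was 1 clone or a pool, or what control construct the WT cells carried. P-values therefore speak only of the spread among the libraries at hand, and that spread may be technical.

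MHC class II molecules are pairs of an alpha and a beta chain that carry peptides from digested proteins to the cell surface, where CD4+ T cells read them. New chains assemble in the endoplasmic reticulum with the invariant chain CD74, which blocks the groove and steers the complex to endosomes. There proteases trim CD74 to a fragment, the DM heterodimer exchanges that fragment for antigen peptides, and the DO heterodimer, made mainly in B cells, restrains DM. Transcription of these genes depends on conserved X and Y boxes in their promoters, bound by RFX, CREB and NF-Y proteins, on which CIITA, a co-activator that does not bind DNA itself, is recruited. Early B-cell precursors hold little class II on their surface, and the amount increases as B cells mature.

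The promoters of the H2 genes are shown because class II genes, which changed in different directions in these cells, are known to share this pair of boxes. Windows of 300 bases, 250 before and 50 after each annotated start, came from RefSeq on build GRCm38.p6, and 7 of the 10 members had an entry, with 2 windows for H2-DMa. Entries for Cd74, H2-Ab1 and Ciita were not used here. The letters TGATTGG, a Y box core, were found in 6 of the 8 member windows, and the 72 bases around them are given 5′ to 3′ on the gene's strand, lined up on that box. Capitals mark TGATTGG and, ahead of it, the X box-like letters AACNNATGA, or AGCAAC or GGCAAC where AACNNATGA was not found. TGATTGG and GGCAAC were not among the motifs set in advance, and their shares over all promoter windows were not counted.
H2-Aa: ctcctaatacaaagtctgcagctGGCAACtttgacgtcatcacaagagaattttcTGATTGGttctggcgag
H2-Eb1: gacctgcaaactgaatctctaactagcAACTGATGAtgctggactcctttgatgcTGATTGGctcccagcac
H2-DMb1: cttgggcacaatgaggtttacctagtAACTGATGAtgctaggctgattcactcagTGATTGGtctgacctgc
H2-DMb2: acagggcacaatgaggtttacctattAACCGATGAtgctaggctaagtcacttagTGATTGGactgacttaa
H2-Oa: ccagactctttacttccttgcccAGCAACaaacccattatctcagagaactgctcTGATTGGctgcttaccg
H2-Ob: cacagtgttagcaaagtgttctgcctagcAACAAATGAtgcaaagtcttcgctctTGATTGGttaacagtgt
H2-Eb2: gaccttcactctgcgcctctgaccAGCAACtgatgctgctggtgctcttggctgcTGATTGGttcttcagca

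These stretches lie on chromosome 17, at chr17:34287857-34287928 on the minus strand for H2-Aa and, on the plus strand, at chr17:34305751-34305822 for H2-Eb1 and chr17:34153073-34153144 for H2-DMb1. The plus-strand stretch of H2-DMb2 is at chr17:34145102-34145173, that of H2-Oa at chr17:34092279-34092350, that of H2-Ob at chr17:34238791-34238862, and that of H2-Eb2, a neighbouring class II beta-chain gene outside the member set, at chr17:34325518-34325589. Each motif was searched on both strands. AGCAAC stood in 3 of the 8 member windows, against 14.8% of 32851 promoter windows of the same length, and ATTGG in 7 of 8, against 37.4%. AGCAAC followed on the same strand by ATTGG after 10 to 30 bases was found in H2-Eb1, H2-Oa and H2-Ob, and in 0.359% of all windows. AACNNATGA, chosen after the sequences had been seen, stood in the windows of H2-DMb1, H2-DMb2, H2-Eb1 and H2-Ob and in 2.85% of all windows, and it was followed by ATTGG at that spacing in the same 4 and in 0.0578% of all. In H2-Eb1 and H2-Ob it overlaps AGCAAC by its first 3 letters. A match describes letters and is not evidence of a bound site.

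Ciita was low in every group and was nearly lost from KO_sg1. It had 1, 3 and 1 estimated counts in the KO_sg1 libraries and 7.01, 7 and 5 in KO_sg4, with 8, 10 and 13.12 in KD and 58, 65 and 35 in WT. Every library of the 3 Phf6-targeted groups lay below every WT library. As TMM-scaled CPM, counts brought to a common library size, Ciita averaged 0.0615 ± 0.0245 in KO_sg1, 0.243 ± 0.0891 in KO_sg4, 0.346 ± 0.0853 in KD and 1.85 ± 0.423 in WT (SD, n = 3 each). The log2 fold change against WT was -4.74 ± 0.39 in KO_sg1 (SE, adjusted p = 2.85e-07), -2.97 ± 0.30 in KO_sg4 (adjusted p = 2.05e-06) and -2.41 ± 0.27 in KD (adjusted p = 1.56e-06; edgeR quasi-likelihood test with Benjamini-Hochberg adjustment over all tested genes). Summed over a group, the level in WT was 28.6 times that in KO_sg1, with a 95% counting interval of 12 to 89.4, so the depth leaves the size of this difference loose. Ciita passed the filter only through the WT libraries, so that it could hardly have been tested without being lower elsewhere. In bulk RNA, fewer cells with a transcript and less transcript per cell cannot be told apart.

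Cd74, the invariant chain, was the most abundant class II transcript per kilobase of exon in WT and KD. Its libraries stood at 9.95, 9.76 and 9.71 CPM in KO_sg1, 11.9, 14.7 and 13.8 in KO_sg4, 205, 190 and 197 in KD and 258, 254 and 231 in WT. The 6 KO libraries formed a low cluster, and the KD libraries lay just under the lowest WT library without overlap. Cd74 was 25.2-fold lower than WT in KO_sg1 (log2 fold change -4.66 ± 0.08, adjusted p = 5.42e-14) and 18.5-fold lower in KO_sg4 (-4.21 ± 0.08, adjusted p = 5.51e-14). In KD it was 1.26-fold lower (-0.33 ± 0.06, adjusted p = 0.000357), a call that was lost when libraries were scaled by their totals (-0.11, adjusted p = 0.0970), which puts the median of all genes at 0.208 in that comparison, against -0.01.

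The classical chains H2-Aa, H2-Ab1 and H2-Eb1, which form the I-A and I-E molecules that display peptide, fell with Cd74 in both KO groups. H2-Aa, the alpha chain of I-A, had 0.283, 0.206 and 0.223 CPM in KO_sg1, 0.279, 0.391 and 0.408 in KO_sg4, 3.25, 3.17 and 3.20 in KD and 6.25, 6.695 and 5.67 in WT. H2-Ab1, its partner beta chain, had 0.202, 0.0884 and 0.0558 CPM in KO_sg1, 0.186, 0.244 and 0.204 in KO_sg4, 1.16, 1.13 and 1.203 in KD and 2.37, 3.01 and 2.89 in WT. For both, no KO library overlapped a KD or WT library and no KD library overlapped a WT library. H2-Eb1, the beta chain of I-E, showed the same separation, with 0.445, 0.206 and 0.167 CPM in KO_sg1, 0.372, 0.391 and 0.272 in KO_sg4, 2.965, 2.00 and 2.31 in KD and 5.94, 5.52 and 4.69 in WT. H2-Ea-ps, the row of the E alpha gene that C57BL/6 mice do not express, did not reach the filter, so H2-Eb1 had no measured partner chain.

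Against WT, the log2 fold change of H2-Aa was -4.70 ± 0.18 in KO_sg1, -4.12 ± 0.17 in KO_sg4 and -0.95 ± 0.12 in KD. That of H2-Ab1 was -4.50 ± 0.28 in KO_sg1, -3.70 ± 0.25 in KO_sg4 and -1.24 ± 0.18 in KD, and that of H2-Eb1 was -4.27 ± 0.26, -3.96 ± 0.25 and -1.14 ± 0.18 in the same order. All 9 passed the test, with adjusted p-values from 1.15e-10 to 4.87e-05. In each gene the KO libraries held few reads, 18, 9 and 21 estimated counts over the 3 KO_sg1 libraries for H2-Aa, H2-Ab1 and H2-Eb1 against 527, 233 and 458 in WT. Summed over a group, their WT levels were 26.5, 23.4 and 19.8 times those in KO_sg1. The 95% counting intervals were 16.6 to 45.1, 12.1 to 51.9 and 12.8 to 32.2, so the depth leaves these sizes loose. These 3 genes did not reach the filter's level of 0.354 CPM in 3 libraries of either KO group and passed it through KD and WT.

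**Figure D1:**
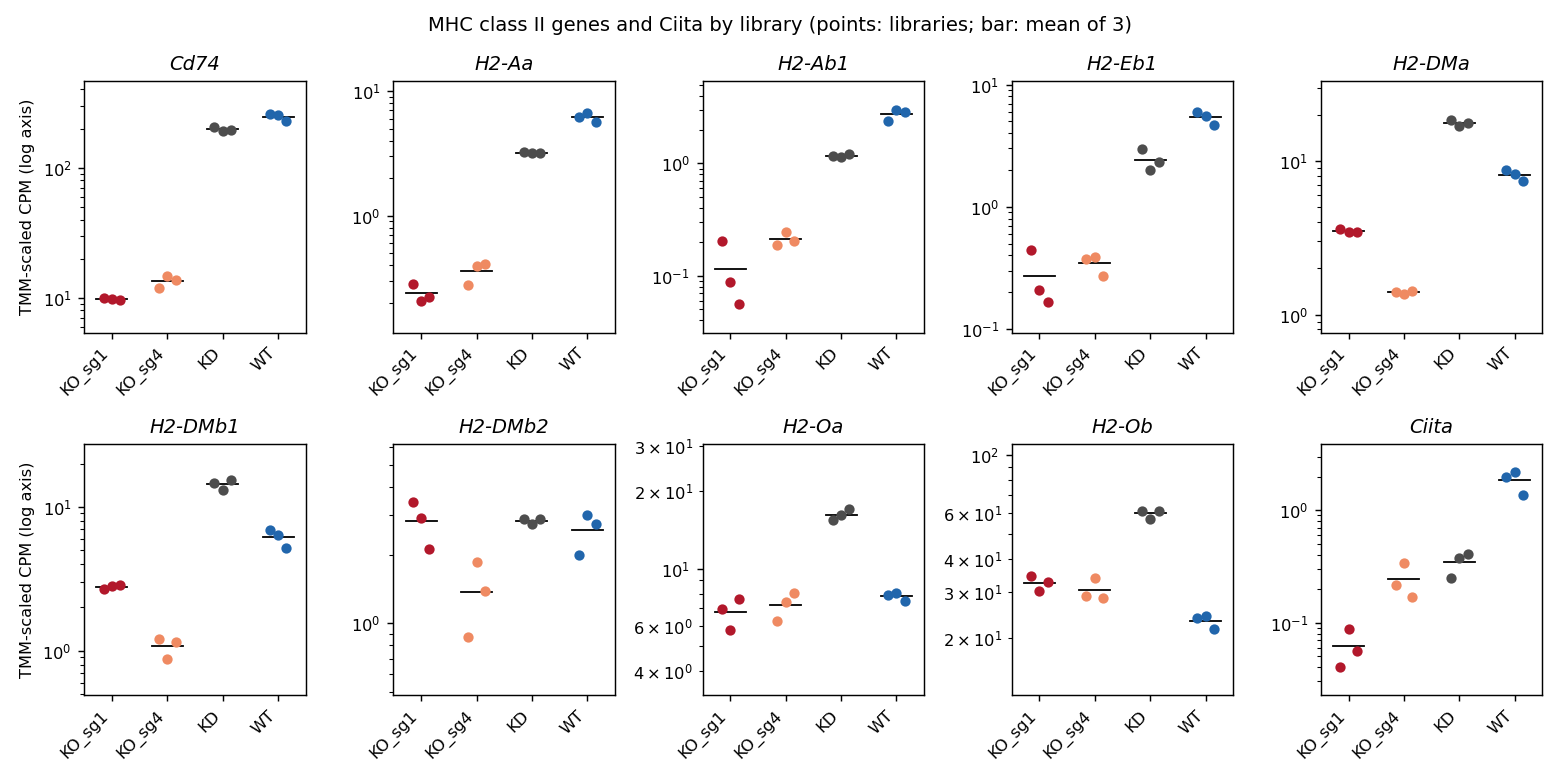
TMM-scaled CPM (y axis, log scale, a separate range for each gene) of the 10 members in the 12 libraries, by group (x axis); points are libraries and bars are means of 3. Cd74, H2-Aa, H2-Ab1 and H2-Eb1 were low in both KO groups and nearer to WT in KD, H2-DMa and H2-DMb1 were lowest in KO_sg4 and highest in KD, and H2-Oa and H2-Ob were highest in KD.

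H2-DMa and H2-DMb1, genes of the peptide-loading DM heterodimer, separated all 4 groups. H2-DMa, the alpha chain, had 3.60, 3.45 and 3.46 CPM in KO_sg1, 1.39, 1.37 and 1.43 in KO_sg4, 18.4, 16.9 and 17.6 in KD and 8.76, 8.17 and 7.43 in WT. H2-DMb1, a beta chain, had 2.67, 2.83 and 2.85 CPM in KO_sg1, 1.21, 0.880 and 1.16 in KO_sg4, 14.7, 13.1 and 15.3 in KD and 6.94, 6.39 and 5.16 in WT. In both genes KO_sg4 was lowest, then KO_sg1, then WT, with KD highest, and no pair of groups overlapped. H2-DMa was 2.32-fold lower in KO_sg1 (log2 fold change -1.21 ± 0.10, adjusted p = 2.19e-07), 5.79-fold lower in KO_sg4 (-2.53 ± 0.11, adjusted p = 2.40e-10) and 2.17-fold higher in KD (1.12 ± 0.09, adjusted p = 2.48e-08). H2-DMb1 changed by -1.15 ± 0.14 in KO_sg1 (adjusted p = 1.17e-05), -2.48 ± 0.15 in KO_sg4 (adjusted p = 1.17e-08) and 1.22 ± 0.12 in KD (adjusted p = 2.85e-07).

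H2-DMb2, the second beta chain gene, is a near copy of H2-DMb1, and 25.2% of the 50-base words in its annotated exons also occur in H2-DMb1. It had 3.44, 2.92 and 2.12 CPM in KO_sg1, 0.867, 1.86 and 1.39 in KO_sg4, 2.87, 2.75 and 2.88 in KD and 1.99, 3.01 and 2.74 in WT. The KO_sg1 and KD libraries overlapped those of WT, while those of KO_sg4 lay below them. Its log2 fold change was 0.15 ± 0.23 in KO_sg1 (adjusted p = 0.629), -0.96 ± 0.25 in KO_sg4 (adjusted p = 0.00750) and 0.14 ± 0.22 in KD (adjusted p = 0.585). Because the counting could split shared reads either way, the pair is more safely read as a sum, which was 5.61 ± 0.584 CPM in KO_sg1, 2.45 ± 0.342 in KO_sg4, 17.2 ± 1.2 in KD and 8.74 ± 0.771 in WT (SD, n = 3 each). Taken as a single row, an alternative added after seeing the data, the sum fell by 0.63 on the log2 scale in KO_sg1 (adjusted p = 0.000695) and by 1.85 in KO_sg4 (adjusted p = 4.1e-08) and rose by 0.97 in KD (adjusted p = 1.34e-06). No other member shared a 50-base word with another gene.

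Neither gene of DO, the B-cell restraint on DM, was called lower in KO. H2-Oa, the alpha chain, had 6.95, 5.78 and 7.59 CPM in KO_sg1, 6.26, 7.38 and 8.06 in KO_sg4, 15.4, 16.2 and 17 in KD and 7.90, 8.07 and 7.51 in WT. H2-Ob, the beta chain, had 34.4, 30.2 and 32.7 CPM in KO_sg1, 28.8, 33.9 and 28.5 in KO_sg4, 61.2, 57.0 and 61.1 in KD and 23.8, 24.2 and 21.7 in WT. For H2-Oa the KO libraries overlapped WT and the KD libraries lay above them; for H2-Ob every Phf6-targeted library lay above every WT library. H2-Oa had a log2 fold change of -0.22 ± 0.12 in KO_sg1 (95% interval -0.48 to 0.03, adjusted p = 0.153) and -0.12 ± 0.12 in KO_sg4 (-0.37 to 0.13, adjusted p = 0.463). The KO_sg1 value of H2-Oa passed the test, as lower, in 1 of the alternatives run, that with library totals (-0.30, adjusted p = 0.0418). In KD H2-Oa rose by 1.05 ± 0.11 (adjusted p = 8.39e-07). H2-Ob rose by 0.48 ± 0.08 in KO_sg1 (adjusted p = 0.000260), by 0.38 ± 0.08 in KO_sg4 (adjusted p = 0.00140) and by 1.36 ± 0.08 in KD (adjusted p = 1.21e-09).

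**Figure D2:**
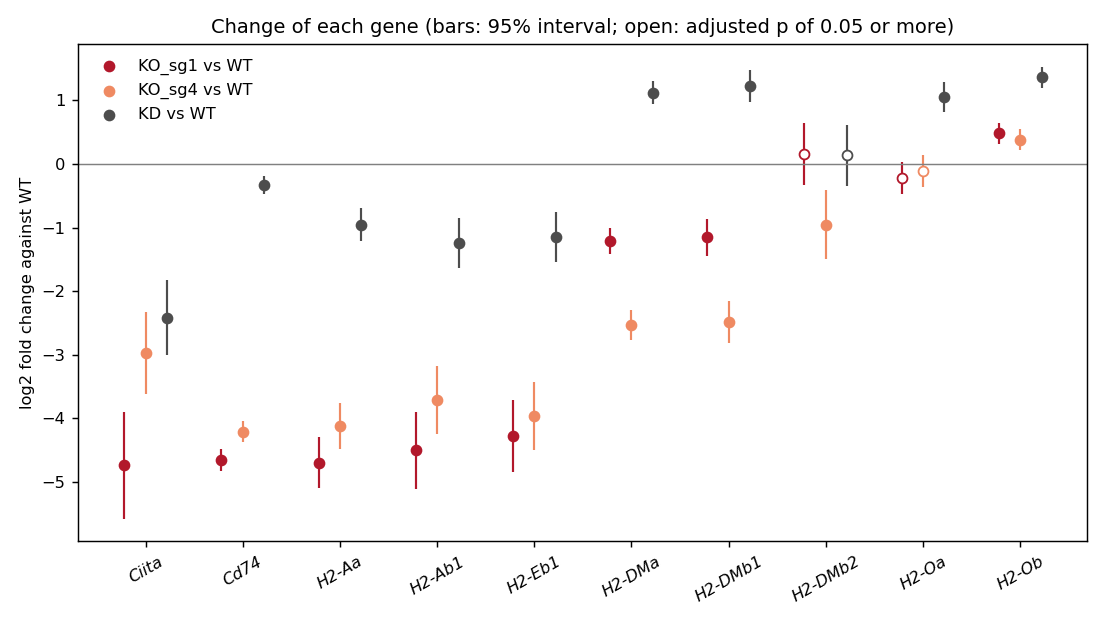
Log2 fold change against WT (y axis) of each member (x axis, grouped by role) in KO_sg1, KO_sg4 and KD, with 95% intervals; open points have an adjusted p of 0.05 or more. Ciita, Cd74 and the classical chains lie between -4.74 and -2.97 in the KO groups, whereas H2-Ob lies at 0.48 and 0.38 there and at 1.36 in KD.

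Being called was common in these comparisons, so the members are read against all genes. In KO_sg1, 7 members were lower and 1 was higher than WT, in a comparison that called 38.8% of all tested genes, 21.9% lower and 16.9% higher. In KO_sg4, 8 were lower and 1 was higher, where 40% of all genes were called, 22% lower and 18% higher. The member median was -2.74 in KO_sg1, against -0.02 over all tested genes, and -2.75 in KO_sg4, against 0.00. Ciita passed the filter only through WT, and H2-Aa, H2-Ab1 and H2-Eb1 only through KD and WT. Their part in the KO counts and medians is therefore not independent of the filter. Genes at least 4-fold lower and called made up 4.22% of those tested in KO_sg1 and 4.54% in KO_sg4. In KD, 5 members were lower and 4 higher, where 77.6% of all genes were called, 40.4% lower and 37.2% higher, and the member median of -0.10 compared with -0.01 over all genes. A count of 9 in 10 is therefore near the background in KD, and the KD values are given gene by gene.

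In the same comparisons, 7 members had every KO_sg1 library below every WT library and 1, H2-Ob, had every one above, against 30.4% and 26% of all tested genes. For KO_sg4 these were 8 and 1, against 25.4% and 20.9%, and for KD 5 below and 4 above, against 43.7% and 40.8%. The limit set by the filter for Ciita and the classical chains holds for these counts as well. Between the guides, 2 members had every KO_sg4 library above every KO_sg1 library and 3 had every one below, against 16.4% and 16.7%. Of the 10 members, 8 had every KD library above all 6 KO libraries and 0 had every one below, against 36.1% and 35.6%; the libraries of H2-DMb2 and Ciita overlapped there.

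Between the KO groups, 2 members were higher in KO_sg4 than in KO_sg1 and 3 were lower, where 27.2% of all genes were called. H2-DMa differed by -1.32 ± 0.12 on the log2 scale (adjusted p = 1.58e-06), H2-DMb1 by -1.33 ± 0.17 (adjusted p = 4.57e-05) and H2-DMb2 by -1.11 ± 0.25 (adjusted p = 0.00499). Cd74 was higher in KO_sg4 by 0.45 ± 0.08 (adjusted p = 0.00132). Ciita was higher by 1.77 ± 0.58 (adjusted p = 0.0366), with 0.170 to 0.342 CPM in KO_sg4 libraries and 0.0404 to 0.0884 CPM in KO_sg1 libraries. That Ciita call was lost with DESeq2 (adjusted p = 0.0649), in a fit of only the groups compared (0.0925) and without KO_sg1 replicate 1 (0.113), KO_sg1 replicate 3 (0.0906), KO_sg4 replicate 1 (0.0674) or KO_sg4 replicate 2 (0.0712). The differences of H2-Aa, H2-Ab1 and H2-Eb1 were 0.58, 0.80 and 0.31 and did not pass. Their 95% intervals were -0.05 to 1.21, -0.17 to 1.76 and -0.57 to 1.18. For H2-Aa and H2-Ab1 these intervals are too narrow, as the edgeR p-values before adjustment, 0.170 and 0.160, are larger than they imply. Those of H2-Oa, at 0.11 with an interval of -0.15 to 0.36, and H2-Ob, at -0.10 with an interval of -0.26 to 0.07, did not pass either.

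KD and KO cells differed in all 10 members, each of which was higher in KD than in the mean of KO_sg1 and KO_sg4, where 83.3% of all genes were called, 42.9% higher. Cd74 was 17.2-fold higher (log2 fold change 4.11 ± 0.06, adjusted p = 1.36e-15), H2-Aa 10.9-fold and H2-DMa 7.96-fold. Ciita was 2.72-fold higher (1.44 ± 0.39, adjusted p = 0.00324), although its KD libraries, at 0.250 to 0.412 CPM, overlapped the KO_sg4 libraries at 0.170 to 0.342 CPM. Ciita in KD was thus near its KO_sg4 level, while Cd74 stood at 197 ± 7.26 CPM in KD and 13.4 ± 1.42 in KO_sg4 (SD, n = 3 each). The member median of 2.92 compared with 0.05 over all genes. H2-Aa, H2-Ab1 and H2-Eb1 had passed the filter through KD and WT and through neither KO group.

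Levels of different genes were compared per kilobase of exon. In WT, Cd74 led with 175 ± 10.4 CPM per kilobase, followed by H2-Oa at 7.19 and H2-Ob at 6.61, whose libraries overlapped, and H2-Aa at 5.50. H2-DMb1 came next at 4.39, then H2-Eb1 and H2-DMa at 3.23 and 3.04, again overlapping, then H2-Ab1 at 2.28, H2-DMb2 at 1.48 and Ciita at 0.224. The order was different in the KO groups: in KO_sg1 H2-Ob was first with 9.24 ± 0.596, ahead of Cd74 at 6.92 and H2-Oa at 6.22, which overlapped. In KO_sg4 Cd74 at 9.49 ± 1 and H2-Ob at 8.65 ± 0.862 overlapped at the top. The classical chains were at 0.0953 to 0.211 CPM per kilobase in KO_sg1 and 0.174 to 0.319 in KO_sg4, below both DO and DM genes. In KD, Cd74 led with 139 ± 5.13, followed without overlap by H2-Ob at 17, H2-Oa at 14.9, H2-DMb1 at 10.2, H2-DMa at 6.61 and H2-Aa at 2.84. H2-DMb2 at 1.62 and H2-Eb1 at 1.45 overlapped, and H2-Ab1 at 0.960 and Ciita at 0.0421 came last.

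Profiles over the 12 libraries were compared by the root mean square difference of log2 CPM after each gene was centred on its own mean, so that a small value means a like pattern. Log2 CPM was taken with a prior count of 2, which narrows the differences of genes with few counts. Distances of Ciita and the classical chains therefore partly reflect their low counts. Among the members the smallest distance was between H2-DMa and H2-DMb1, at 0.114, followed by H2-Ab1 and H2-Eb1 at 0.264, H2-Oa and H2-Ob at 0.281, H2-Aa and H2-Eb1 at 0.325, H2-Aa and H2-Ab1 at 0.375 and Cd74 and H2-Aa at 0.386. Ciita was nearest to H2-Ab1, at 0.727, and farther from Cd74, at 1.31. The 5 genes outside the set most like Cd74, among 9086 with at least 5 CPM in a group, were Il9r, a cytokine receptor chain gene, at a distance of 0.243, Tiam2, an exchange factor for Rac, at 0.336, the transcriptional co-repressor gene Ctbp2 at 0.362, the transcription factor gene Cebpb at 0.457 and the cyclin gene Ccnd1 at 0.464. Those most like Ciita, among 10313 with at least 1 CPM in a group, were the creatine kinase gene Ckb at 0.352, Asb2, a ubiquitin ligase subunit gene, at 0.402, Akr1c12, an aldo-keto reductase gene, at 0.434, Crxos1 at 0.469 and Ass1, a urea cycle enzyme gene, at 0.473. Ccnd1 had 19.4 CPM in KO_sg1, 28.4 in KO_sg4, 236 in KD and 255 in WT, and Ckb had 10.8, 18.2, 27.8 and 105 CPM in the same order. With 4 groups, likeness over 12 libraries rests largely on 4 group levels.

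**Figure D3:**
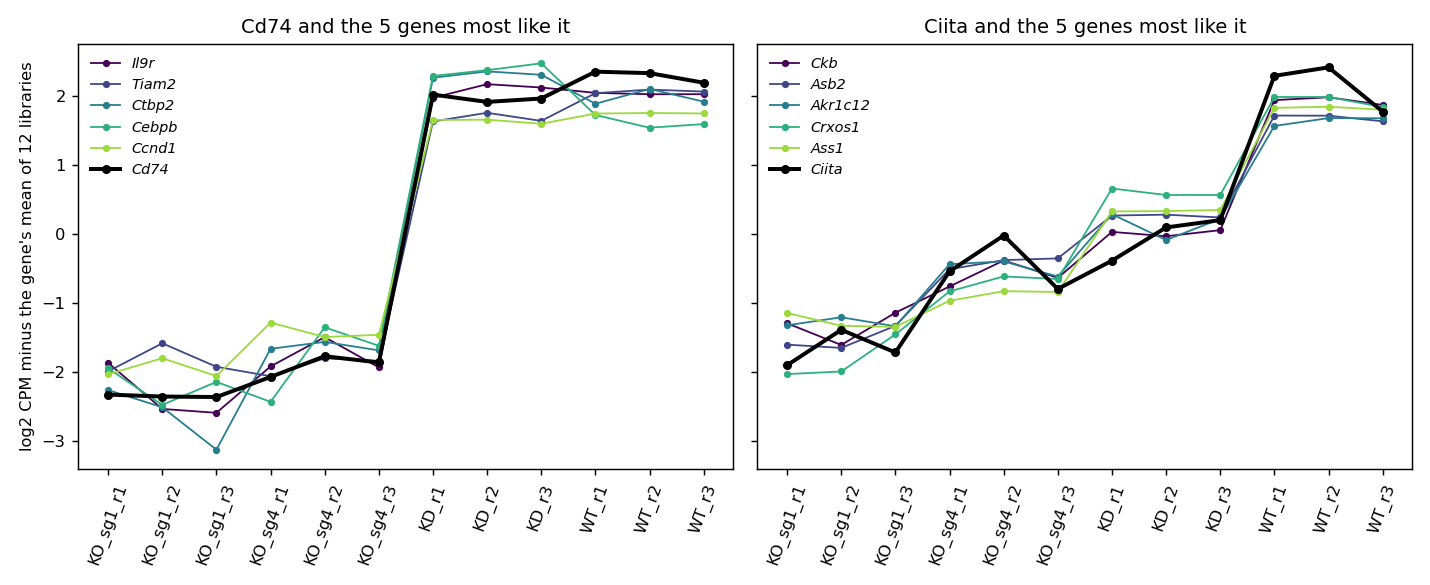
Log2 CPM of each library minus the gene's mean over the 12 libraries (y axis) for Cd74 and the 5 genes most like it (left) and Ciita and the 5 most like it (right), by library (x axis). Cd74 is low in the 6 KO libraries and high in KD and WT, while Ciita is lowest in KO_sg1 and highest in WT, with KO_sg4 and KD between.

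Transcripts of the proteins that hold CIITA at the promoter changed in both directions. Of the 7 genes of this group tested, 2 were higher and 1 lower in KO_sg1, 3 higher in KO_sg4, and 2 higher and 4 lower in KD, with medians of 0.11, 0.15 and -0.35. These counts are near the background, as 38.8%, 40% and 77.6% of all tested genes were called in KO_sg1, KO_sg4 and KD. Rfx5, a subunit of the X box factor RFX, had 14.5 ± 1.12 CPM in KO_sg1, 19.6 ± 3.82 in KO_sg4, 24.7 ± 0.614 in KD and 20.3 ± 0.863 in WT (SD, n = 3 each) and changed by -0.47 ± 0.11 in KO_sg1 (adjusted p = 0.00413). Rfxap, another RFX subunit, rose by 0.32 in KO_sg4 and fell by 0.82 in KD, and its KO_sg1 rise of 0.27 (adjusted p = 0.0263) was lost with library totals and without KO_sg1 replicate 1 or 3 or any 1 WT library. Nfyc, a subunit of the Y box factor NF-Y, fell by 0.83 in KD. The KO_sg1 count of 3 was 1 without WT replicate 2 or 3 or KO_sg1 replicate 1 or 3, 6 without KO_sg4 replicate 1, 5 with DESeq2, its size factors or only the groups compared, and 1 with library totals; the KO_sg4 count of 3 was 1 without WT replicate 2 and 5 without KO_sg4 replicate 1.

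Regulators that act on Ciita moved both ways. Of 14 listed, 13 were tested: 3 were higher and 3 lower in KO_sg1, 2 higher and 4 lower in KO_sg4, and 2 higher and 6 lower in KD. The shares called over all tested genes were 38.8%, 40% and 77.6%. The KO_sg1 count of 6 was 2 without WT replicate 1 and 3 without WT replicate 2, WT replicate 3 or KO_sg1 replicate 1. Ifngr1, the ligand-binding chain of the interferon gamma receptor, whose signal turns on Ciita in many cells, had 34.8 ± 0.729 CPM in KO_sg1, 33.2 ± 0.934 in KO_sg4, 189 ± 4.56 in KD and 73.5 ± 3.16 in WT (SD, n = 3 each). Its log2 fold change was -1.08 ± 0.05 in KO_sg1 (adjusted p = 9.36e-10), -1.15 ± 0.05 in KO_sg4 (adjusted p = 3.84e-10) and 1.36 ± 0.05 in KD (adjusted p = 3.14e-11). Irf4, a factor of the B-cell Ciita promoter, rose by 0.42 ± 0.10 in KO_sg4 (adjusted p = 0.00425) and fell by 0.92 ± 0.11 in KD (adjusted p = 1.77e-06), and its KO_sg1 value of 0.29 (adjusted p = 0.0379) was lost with library totals and without KO_sg1 replicate 1 or 2, KD replicate 3 or any 1 WT library. Irf8, another interferon regulatory factor, fell by 0.51 in KO_sg4 and 0.42 in KD and had -0.08 in KO_sg1 (adjusted p = 0.242). Sfpi1, which encodes PU.1, fell by 0.35 in KO_sg4 and 0.65 in KD, and Prdm1, a repressor of Ciita in plasma cells, was too low to be tested.

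Co-activators and co-repressors known to meet CIITA or its promoter were also mixed, with 1 higher and 4 lower of 10 in KO_sg1, 3 and 2 in KO_sg4, and 0 and 6 in KD. In those comparisons 38.8%, 40% and 77.6% of all tested genes were called. In KD the lower ones included Hdac2, a histone deacetylase (-1.16 ± 0.05, adjusted p = 1.42e-10), Ezh2, a histone methyltransferase (-1.10 ± 0.05, adjusted p = 1.47e-10), and Smarca4, the ATPase of a chromatin remodeller (-0.96 ± 0.05, adjusted p = 9.66e-10). In KO_sg1 Ncoa1, a nuclear receptor co-activator, fell by 0.61 ± 0.12 (adjusted p = 0.00121), against -0.09 ± 0.12 in KO_sg4 (adjusted p = 0.585). The KO_sg1 count of 5 was 2 without WT replicate 1 or 3, 3 without KO_sg1 replicate 3 and 8 without KO_sg4 replicate 1, and the KO_sg4 count of 5 was 3 without KO_sg4 replicate 3 or with library totals and 2 in a fit of only those groups.

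Endosomal proteases, a thiol reductase and the cathepsin inhibitor gene Cst3, a group that acts on peptide supply and on CD74, were mostly lower in KO and all higher in KD. Of 8 tested, 5 were lower and 1 higher in KO_sg1, 6 lower in KO_sg4 and 8 higher in KD, and the medians were -0.48, -0.48 and 1.51. All tested genes gave 21.9% lower and 16.9% higher in KO_sg1, 22% lower in KO_sg4 and 37.2% higher in KD. Lgmn, an asparagine-specific endopeptidase, had 14.5 ± 1.59 CPM in KO_sg1, 11 ± 0.762 in KO_sg4, 208 ± 8.42 in KD and 46.3 ± 1.69 in WT (SD, n = 3 each). It fell by 1.69 ± 0.08 in KO_sg1 (adjusted p = 4.75e-10) and by 2.08 ± 0.08 in KO_sg4 (adjusted p = 4.98e-11) and rose by 2.17 ± 0.07 in KD (adjusted p = 1.64e-11). Ctss, the cathepsin that makes the last cut of CD74 in B cells, had 27.9 ± 1.45, 41.9 ± 2.02, 126 ± 5.19 and 61.6 ± 1.03 CPM in KO_sg1, KO_sg4, KD and WT, and changed by -1.14, -0.55 and 1.03 in the 3 comparisons. Ifi30, a thiol reductase that opens disulfide bonds of antigens, was different between guides: 143 ± 8.24 CPM in KO_sg1, 51.7 ± 5.2 in KO_sg4, 108 ± 3.33 in KD and 67.7 ± 3.84 in WT, a rise of 1.07 in KO_sg1 and 0.67 in KD and a fall of 0.39 in KO_sg4.

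Of 8 genes that set the surface life of class II or signal beside it, 4 were tested, and 3 of these were lower in each KO group and 4 higher in KD. Among all tested genes 21.9% were lower in KO_sg1, 22% lower in KO_sg4 and 37.2% higher in KD. By group means, the listed genes Cd80 and March8 reached the filter's level of 0.354 CPM only in KD. They had 1.54 and 0.448 CPM there, against 0.193 and 0.200 in WT, so their KD calls are not independent of the filter. March1, the ubiquitin ligase that removes class II from the surface, had 0.732 ± 0.401 CPM in KO_sg1, 0.786 ± 0.151 in KO_sg4, 10.5 ± 0.445 in KD and 5.30 ± 0.168 in WT (SD, n = 3 each). Its log2 fold changes were -2.76 ± 0.23 (adjusted p = 3.41e-07), -2.76 ± 0.23 (adjusted p = 2.48e-07) and 0.98 ± 0.17 (adjusted p = 8.92e-05). The co-stimulatory genes Cd80 and Cd40 were scarce, at 0.193 and 0.470 CPM in WT and 1.54 and 2.82 in KD. Their lower values in KO_sg4 were lost in a fit of only those groups (adjusted p = 0.0573 for Cd80 and 0.0629 for Cd40), without KO_sg4 replicate 3 (0.0534 and 0.0523) and without WT replicate 3 (0.0659 and 0.0719). Cd83 and Cd9 were listed at 0 in all 12 libraries.

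MHC class I genes, which present peptides to CD8+ T cells and use NLRC5 in place of CIITA, did not fall with class II in KO_sg1. Of 5 tested, 3 were higher in KO_sg1, 1 was higher and 1 lower in KO_sg4, and 5 were higher in KD. For all tested genes the shares were 16.9% higher in KO_sg1, 18% higher and 22% lower in KO_sg4, and 37.2% higher in KD. H2-K1, a class I heavy chain, had 484 ± 22.8 CPM in KO_sg1, 511 ± 53.7 in KO_sg4, 1633 ± 62.6 in KD and 491 ± 11.6 in WT (SD, n = 3 each). It did not pass the test in KO_sg1 (-0.02, adjusted p = 0.847) or KO_sg4 (0.06, adjusted p = 0.560) and rose by 1.73 ± 0.07 in KD (adjusted p = 8.88e-11). H2-D1, another heavy chain gene, rose by 0.24 in KO_sg1 (adjusted p = 0.0239). That call was lost without WT replicate 1 (0.0610) or 3 (0.0855) or KO_sg1 replicate 1 (0.0816) or 3 (0.0728). Nlrc5 rose by 0.47 ± 0.07 in KO_sg1, 0.24 ± 0.07 in KO_sg4 and 0.66 ± 0.07 in KD (adjusted p = 6.73e-05, 0.0100 and 4.49e-07), and its KO_sg4 call was lost without WT replicate 1 (0.0574). The KO_sg4 count of 2 was 4 without KO_sg4 replicate 1, none without WT replicate 1, and 1 without WT replicate 2, KD replicate 2 or 3 or KO_sg1 replicate 1, and 1 with DESeq2, its size factors, library totals, no filter or only the groups compared.

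**Figure D4:**
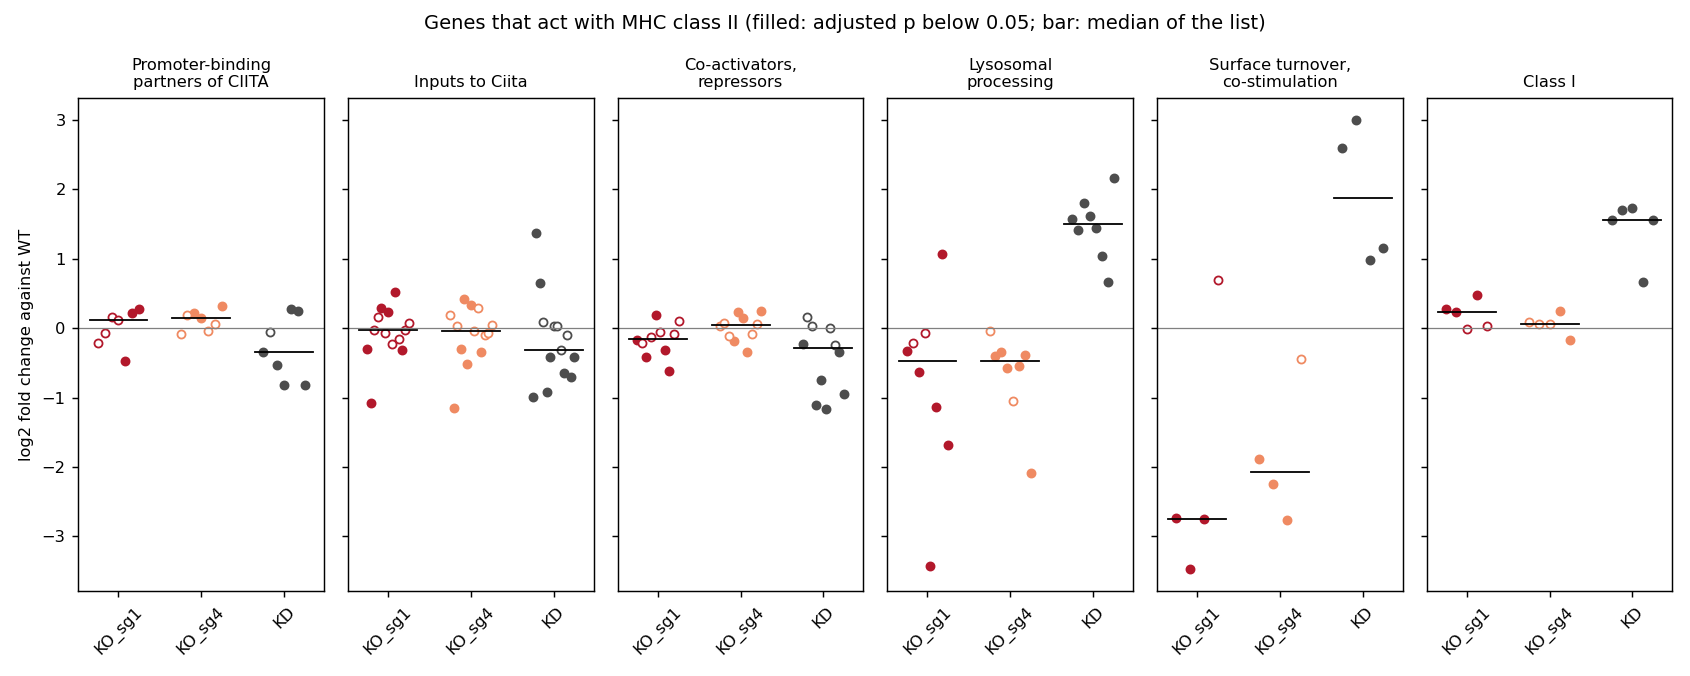
Log2 fold change against WT (y axis) of genes that act with class II, by list (panels) and group (x axis); filled points have an adjusted p below 0.05 and bars are list medians. Lysosomal processing genes have a median of -0.48 in both KO groups and 1.51 in KD, while the promoter-binding partners of CIITA have medians of 0.11, 0.15 and -0.35.

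Most tested genes of the class II region and its flanks, members aside, did not pass the test in KO, as was true of all tested genes. Apart from members, 30 protein-coding genes lie in the class II region and its flanks on chromosome 17 by RefSeq gene order on GRCm38.p6, and 24 were tested. Of these, 3 were higher and 3 lower in KO_sg1, 6 were lower in KO_sg4, and 15 were higher and 8 lower in KD, with medians of 0.06, -0.04 and 0.46. Over all tested genes, 16.9% were higher and 21.9% lower in KO_sg1, 18% and 22% in KO_sg4, and 37.2% and 40.4% in KD. Tap1 and Tap2, subunits of the class I peptide transporter that lie between H2-DMb1 and H2-Ob, changed by 0.03 and 0.09 in KO_sg1 (adjusted p = 0.793 and 0.255), by -0.32 and -0.32 in KO_sg4 (adjusted p = 0.00529 and 0.00102) and by 1.82 and 1.86 in KD. Among the 19 tested genes of a shorter list of these neighbours, the KO_sg1 count of 4 was 2 without any 1 WT library or KO_sg1 replicate 3, 1 without KO_sg1 replicate 1 and 7 without KO_sg4 replicate 1, and the KO_sg4 count of 5 was 8 without KO_sg4 replicate 1.

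Beside H2-Eb1, the class II beta-chain gene H2-Eb2 went its own way. It had 9.58, 10.2 and 8.20 CPM in KO_sg1, 3.93, 3.03 and 3.16 in KO_sg4, 5.71, 5.81 and 5.51 in KD and 3.85, 4.79 and 4.34 in WT. Every KO_sg1 library lay above all others, and KO_sg4 overlapped WT. It rose by 1.11 ± 0.12 in KO_sg1 (adjusted p = 6.90e-06) and by 0.39 ± 0.13 in KD (adjusted p = 0.0119), the KD value being lost without WT replicate 1 (adjusted p = 0.0613), and had -0.35 ± 0.13 in KO_sg4 (adjusted p = 0.0557), which passed the test when WT replicate 1 was left out, and likewise for KO_sg1 replicate 3 and KO_sg4 replicate 1. Its promoter, printed above, holds AGCAAC and TGATTGG like that of H2-Oa. Farther on, the butyrophilin-like gene Btnl1, at 0.508 ± 0.0952 CPM in WT (SD, n = 3), had 0 counts in KO_sg1 and was at least 13-fold lower there, with 3 counts over the group as the floor. In KO_sg4 it had 2 counts over the group, against 43 in WT, a 20.9-fold higher level in WT with a counting interval of 5.44 to 178. In KD its log2 fold change was 0.83 (adjusted p = 0.0359), a call lost with DESeq2, with no filter on low counts and without WT replicate 1 or 3 or KD replicate 1 or 3.

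Around Ciita on chromosome 16, 7 of 11 neighbours were tested, and 3 were lower in KO_sg1, 1 was higher and 2 lower in KO_sg4, and 1 was higher and 5 lower in KD. Shares of all tested genes called were 38.8%, 40% and 77.6% in KO_sg1, KO_sg4 and KD. Litaf, which encodes an endosomal protein, had 4.64 ± 0.814 CPM in KO_sg1, 11.1 ± 0.985 in KO_sg4, 15.4 ± 0.415 in KD and 21.4 ± 0.101 in WT (SD, n = 3 each). Socs1, an inhibitor of cytokine signalling, fell by 0.63 ± 0.10 in KO_sg1 (adjusted p = 0.000256) and by 1.12 ± 0.11 in KO_sg4 (adjusted p = 1.04e-06) and had -0.09 in KD (adjusted p = 0.424). Dexi, the next gene after Ciita in this order, fell by 0.39 ± 0.12 in KO_sg1 (adjusted p = 0.0169) and by 0.71 ± 0.12 in KD (adjusted p = 8.15e-05), and the KO_sg1 call was lost without KO_sg1 replicate 3 or WT replicate 1 or 2.

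**Figure D5:**
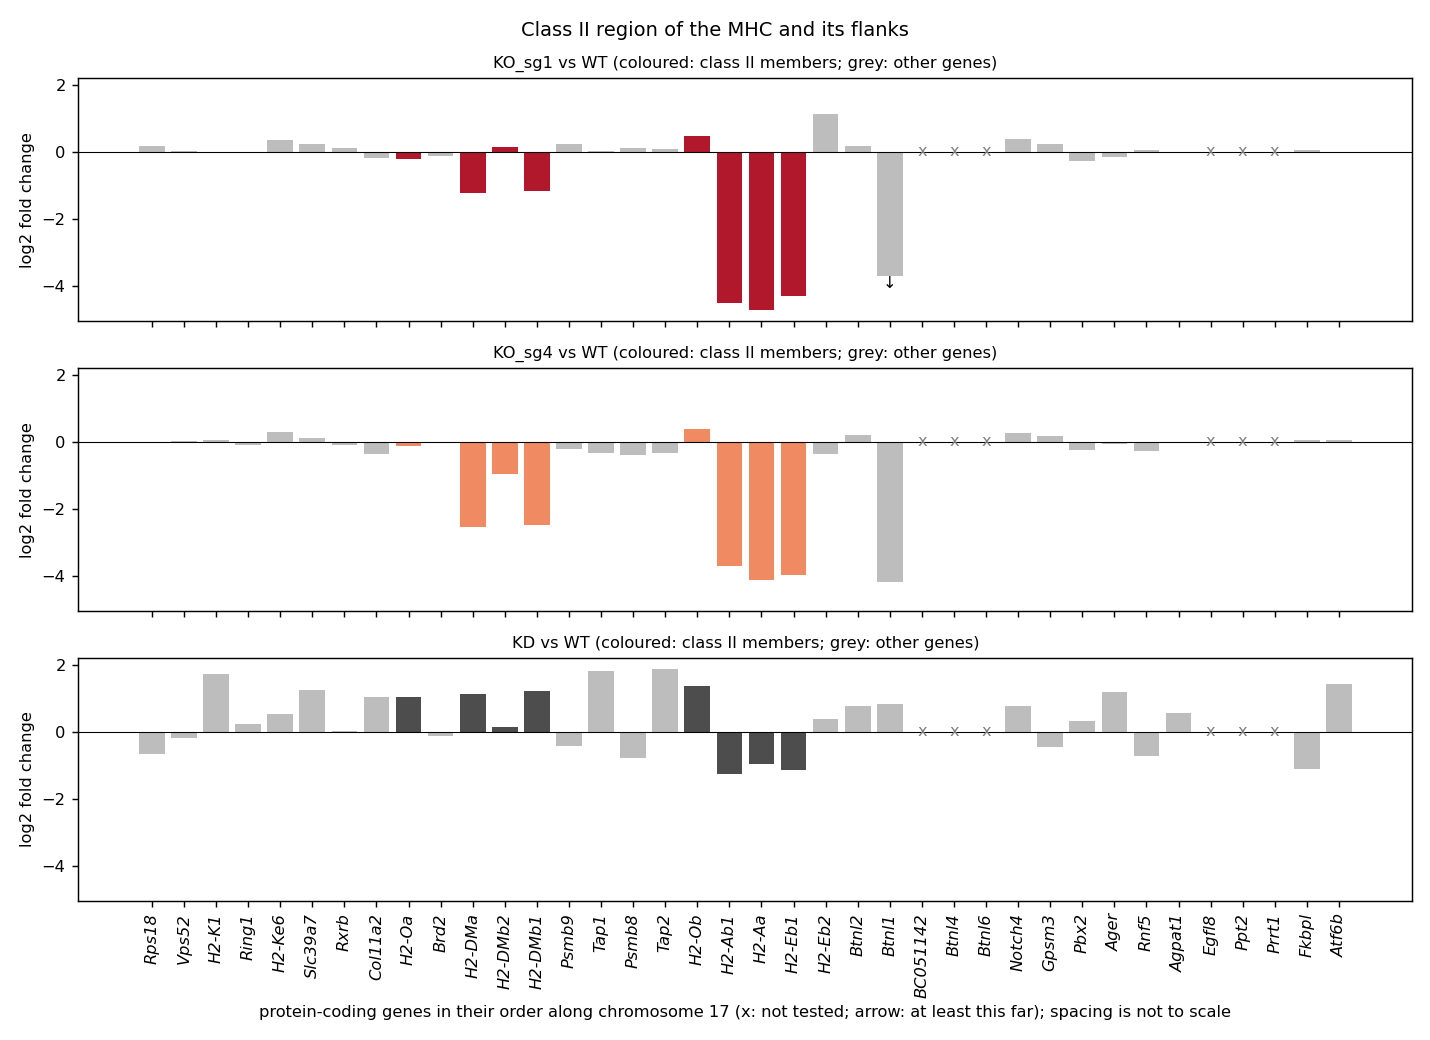
Log2 fold change against WT (y axis) of protein-coding genes of the class II region and its flanks in their order along chromosome 17 (x axis, not to scale) for KO_sg1, KO_sg4 and KD; members are coloured, other genes grey, x marks genes not tested and the arrow a lower bound on the size. H2-Ab1, H2-Aa and H2-Eb1 stand at -4.70 to -3.70 in the KO panels beside neighbours such as Tap2, at 0.09 and -0.32. Btnl1 is low in both KO panels too.

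Across the series, library totals ran from 20382328 to 36032369 estimated counts, and a count of 0 in 1 library allows up to 0.0884 to 0.167 CPM, counting error only. Phf6 was lower in KO_sg1 (3.40 ± 0.288 CPM) and KD (8.79 ± 0.429) than in WT (34.5 ± 0.751) but not in KO_sg4 (36.6 ± 7.37; SD, n = 3 each), so mRNA does not check that label. Summed Y-linked transcripts were at 0.0404 to 0.0884 CPM in KO_sg1, 0.0310 to 0.147 in KO_sg4, 100 to 105 in KD and 76.5 to 88.3 in WT. Whether the KO cells lost these transcripts or came from other starting cells than KD and WT was not tested. Either difference cannot be told apart from the Phf6 knockout in any KO value above. All 11 pre-B markers were above 1 CPM in every group: 4 were higher and 4 lower in KO_sg1, 5 and 4 in KO_sg4, and 7 and 1 in KD. The KO_sg1 count of 8 was 5 without KO_sg1 replicate 3. Mature B markers, of which 6 were tested, gave 2 higher and 3 lower in KO_sg1, 3 lower in KO_sg4, and 5 higher and 1 lower in KD. Both marker counts stand beside 38.8% of all tested genes called in KO_sg1, 40% in KO_sg4 and 77.6% in KD. By group means, the mature B marker Fcer2a reached the filter's level of 0.354 CPM only in KD, at 0.429 against 0.153 in WT. Its KD value is therefore not independent of the filter.

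Called markers of other antigen-presenting cells were lower in KO and higher in KD, as H2-DMa and H2-DMb1 were. For comparison, 21.9% of all tested genes were lower in KO_sg1, 22% were lower in KO_sg4 and 37.2% were higher in KD. By group means, the dendritic-cell marker Itgax reached the filter's level of 0.354 CPM only in KD, at 0.496 against 0.162 in WT. Its KD value is therefore not independent of the filter, and any other marker that passed through KD alone has the same limit. Of 9 macrophage markers 7 were tested, and 5 were lower in KO_sg1, 5 lower in KO_sg4 and 6 higher in KD. Their summed level was 17.2 to 19.8 CPM in KO_sg1, 19.4 to 21.0 in KO_sg4, 116 to 119 in KD and 44.1 to 45.5 in WT; Cd14 was at 0 in both KO groups and Emr1 in KO_sg4. Of 8 dendritic-cell markers 6 were tested, with 4 lower in KO_sg1, 3 lower in KO_sg4 and 4 higher in KD, and sums of 2.06 to 2.40, 2.14 to 3.03, 11.5 to 12.2 and 5.79 to 6.15 CPM in KO_sg1, KO_sg4, KD and WT; Clec9a was at 0 in both KO groups. T-cell markers summed to 3.83 to 4.81, 1.94 to 2.42, 37.5 to 42.5 and 12.9 to 15.1 CPM in that order, most of it Cd28 in KD and WT, and stromal markers to at most 0.302 CPM in any library. In KD these sums were above WT while Ciita, Cd74 and the classical chains were below it. Their part in the results for the members was not tested.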

How the data were processed

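RNA of 12 samples was sequenced from libraries made with a TruSeq mRNA kit, per the labels' protocols, and sample titles gave the groups and the replicate numbers. The authors deposited a table of RSEM estimated counts for 23224 genes; per the submitters' processing notes, Bowtie 1.0.1 and RSEM 1.2.12 were used with mm9. Not given in the sources used here are the annotation, strand setting and read length. RSEM divides reads that match several genes among them, so near-identical or overlapping genes are uncertain.

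Estimated counts were rounded to whole numbers and filtered with filterByExpr (minimum count 10), leaving 12335 genes. They were scaled by TMM and fitted in 1 edgeR 4.0.16 quasi-likelihood model (R 4.3.3) of all 12 libraries with 4 group means; 5 contrasts were tested two-sided, adjusted by Benjamini-Hochberg over all tested genes and called below 0.05. The SE of a log2 fold change is its size over the square root of the F statistic. The counting intervals of summed group levels and the floors (3 counts) cover counting error only. Intervals of log2 fold changes are instead built from the SE of the edgeR fit, which includes the spread among libraries. Exon lengths came from GENCODE on GRCm38, promoters and gene order from RefSeq on GRCm38.p6; no coordinates on mm9 were used. Of the 12 pairs of replicates within a group, all differed by more than sampling noise (chi-square per degree of freedom 3.36 to 61.8). Libraries with the same number did not deviate together (correlation -0.238 to 0.101 over 18 pairs), so no block was used.

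Named were all members, list genes with the largest called changes (up to 4 a list and comparison) or a role the text needs, and the 5 genes most like Cd74 and Ciita by profile. Btnl1 and Litaf, region genes outside the lists, were named after their values were seen. Members, lists and the rule were chosen with earlier results of these data known, so no pattern here is independent of them. Alternatives were DESeq2 1.42.0, its size factors, limma-voom (limma 3.58.1), library totals, no filter, only the groups compared, a replicate block and leaving out each library; the sum of H2-DMb1 and H2-DMb2 and the AACNNATGA motif were added after seeing the data. The fit was also run on counts simulated from its own model and fitted spread, which cannot check that model on the real libraries.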

Additional observations from a re-analysis of the deposited data

Results flagged for a closer look

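The 5 results flagged are members whose change against WT differed between the guides by the test of that difference in edgeR; both effects share the WT libraries, and the differences are between KO_sg4 and KO_sg1. For H2-DMa the effect of KO_sg4 minus that of KO_sg1 was -1.32 on the log2 scale (adjusted p = 1.58e-06), from -2.53 in KO_sg4 and -1.21 in KO_sg1. For H2-DMb1 it was -1.33 (adjusted p = 4.57e-05), and for its near copy H2-DMb2 -1.11 (adjusted p = 0.00499), each lower in KO_sg4. The sum of both beta genes differed by -1.21 (adjusted p = 1.16e-05). For Cd74 the difference was 0.45 (adjusted p = 0.00132), from -4.21 in KO_sg4 and -4.66 in KO_sg1, and for Ciita 1.77 (adjusted p = 0.0366), from -2.97 and -4.74. Phf6 mRNA differed between the same libraries by 3.45 (adjusted p = 2.93e-10), and its part in these differences was not tested.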

How the results depend on the processing

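Member fold changes were recomputed in 960 combinations of gene, comparison and alternative: 945 kept their direction and their side of the threshold, 7 lost the call, 2 gained it and 6 reversed. Each reversal was of a value that did not pass the test. H2-DMb2 in KO_sg1 was -0.00837 without WT replicate 1, -0.000696 without KO_sg1 replicate 1 and -0.63 when summed with H2-DMb1, and in KD, with 1 library left out, it ran from -0.0211 without WT replicate 1 to 0.27 without WT replicate 2. Between guides, H2-Ob was 0.0147 with library totals and H2-Oa, with 1 library left out, ran from -0.00683 without KO_sg1 replicate 2 to 0.21 without KO_sg4 replicate 1. Of neighbouring genes in KD, Vps52 (0.0513) and Brd2 (0.108) reversed with library totals. The causes were not tested, apart from the sum's own construction. With each library left out in turn, called members stayed at 8 in KO_sg1, 9 in KO_sg4, 9 in KD and 10 between KD and KO, and ran from 4 to 5 between guides. Over all genes, the counts ran from 3758 to 6045, 3977 to 5452, 9070 to 9923 and 9782 to 10514 in those comparisons and from 2277 to 5326 between guides, the highest without KO_sg4 replicate 2, against 3359 with all libraries. In a fit of only the KO groups it was 1628. With the replicate number as a block, all genes called were 4264 in KO_sg1, 4423 in KO_sg4, 9345 in KD, 2730 between guides and 10108 between KD and KO, and no member call changed; numbers do not pair these samples. Of the listed groups, the block left 1 promoter-binding partner of CIITA called in KO_sg1 (Rfxap and Rfxank were lost, adjusted p = 0.0501 and 0.0502), 2 of the shorter list of region neighbours in KO_sg1 and 1 class I gene in KO_sg4 (Tapbp was lost, adjusted p = 0.0637); Nfyc in KO_sg4 (adjusted p = 0.0708) and Btnl1 in KD (adjusted p = 0.0703) were lost too. Library totals put the median of all genes at -0.10 in KO_sg1, 0.208 in KD, 0.125 between guides and 0.29 between KD and KO, against -0.02, -0.01, 0.01 and 0.05, and the share of higher calls to 30.04%, 59.7%, 72.9% and 62.7%, against 43.5%, 47.9%, 50.6% and 51.5%. Depth limits Ciita and the classical chains in KO most.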
